A study of Mus musculus with 8 samples.

Results

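Mouse embryonic stem (ES) cells that received FGF4 together with shRNAs against Mp1 were compared with cells that received no growth factor and control shRNAs, to ask which FGF4-linked differences were present although Mp1 was targeted. The comparison rests on 4 of the 8 Illumina arrays of the series, chosen by their labels. All cells were of the R1 line, a mouse ES line whose labels name 129S1/SV-+p+Tyr-cKitlSl-J/+ beside 129X1/SvJ as strains, were Fgf4-/- and carried an shRNA vector. Before the factors were given, all cells spent a night in the serum-free medium N2B27 with BMP4 at 10 ng/ml, and FGF4 was then given for 3 days. The first group (2 arrays) received FGF4 at 20 ng/ml and carried the Mp1 shRNAs shMp1Lib and shMP1G. The second (2 arrays) received no growth factor and carried the control shRNAs shRnd1 and shRnd2. The factor and the shRNA differ between these groups, so the effect of either cannot be told apart from the other in this comparison. For orientation, levels with FGF4 at 20 ng/ml and control shRNAs (2 arrays) are given beside them, and 2 further control arrays received LIF at 10 u/ml. Whether the arrays of a group stand for separate cultures is not in the labels, so the p-values reflect the spread among these arrays alone, which may be technical. The deposited intensities had lost decimal points, which were restored as described under the processing.

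FGF4 is a secreted ligand that ES cells make themselves. It binds FGF receptors and activates the kinases RAF, MEK and ERK, which move cells out of the naive pluripotent state and towards the epiblast that forms the embryo proper. LIF acts through STAT3 in the other direction and BMP4 through SMAD proteins. Mp1, the product of Lamtor3, is a scaffold protein that holds MEK1 and ERK1 together on late endosomes. ERK signalling also induces its own inhibitors, among them dual-specificity phosphatases and Sprouty and Spred proteins, which makes those genes a common readout of the pathway.

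The ES cell identity of the 4 arrays was checked with marker genes. Of 8 ES cell markers, 4 had a named probe (Pou5f1, Utf1, Dppa5a and Tdgf1), and all 4 were detected on each of these arrays. Pou5f1, the central pluripotency factor, had a normalized log2 intensity of 14.01 and 13.83 with Mp1 shRNAs, against 13.91 and 13.87 with no growth factor, and Dppa5a one of 14.41 and 14.46 with Mp1 shRNAs, against 14.62 and 14.41 with no growth factor. Of 8 fibroblast markers, which would report on feeder cells, Col1a1, Col1a2, Col3a1, Postn, Lum and Dcn were not detected on any of the 4 arrays. Thy1 was detected on both no-factor arrays and Acta2 on neither. With Mp1 shRNAs Thy1 and Acta2 were each detected on at least 1 array. The 8 markers summed to a linear normalized intensity of 312 and 413 at lowest and highest with Mp1 shRNAs, against 250 and 273 with no growth factor. These sums include the background signal of undetected markers. The knockdown itself could not be checked: the signal of the single probe named Lamtor3 stayed near background throughout (intensity of 71.2 and 63.0 with shMp1Lib and shMP1G, against 70.2 and 64.8 with no growth factor), and 0 probes were named Fgf4. A bulk array cannot tell fewer cells of a type from less RNA per cell.

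The shMp1Lib array stood apart. Between 15375 and 17813 of 45281 probes were detected per array, most on shMp1Lib, and the share of features with a difference above 1.5-fold was 28.5% between shMp1Lib and shMP1G, against 3.96% between the no-factor arrays. Across probes the log2 levels of shMp1Lib and shMP1G correlated at 0.961, while the no-factor arrays correlated at 0.993 (probes are not independent replicates). In each paragraph below, the first value of a Mp1 shRNA pair is that of shMp1Lib, the second that of shMP1G, and no-factor values are those of shRnd1 and shRnd2, all as normalized log2 intensity. Arrays were left out 1 at a time, so a value without either array of a group stands for each array left out alone.

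Of 14103 features tested, 1145 rose (8.12%) and 859 fell (6.09%) with FGF4 and Mp1 shRNAs against no growth factor at an adjusted p under 0.05 (limma, Benjamini-Hochberg). A total of 709 rises and 551 falls were of at least 2-fold. In all 1145 rises and 859 falls, both Mp1 shRNA arrays lay on the same side of both no-factor arrays. With 2 arrays per group a feature can hardly pass otherwise, so this is no further support. At an unadjusted p under 0.05, 4046 features passed. The count of 2004 was 1742 (965 rises and 777 falls) without shMp1Lib and 4565 without shMP1G, and it was 740 and 737 without shRnd1 and without shRnd2 with no growth factor. With arrays scaled by their medians in place of quantiles, 1169 rose and 518 fell, and the median difference of all features was 0.18 in place of 0.02 log2 units. Of the rises 337 (29.4%) were of probes absent from the deposited table of processed intensities, against 152 of the falls (17.7%). Among all 45281 probes, detected or not, 2988 were absent from it. A gene name was at hand for 696 of the rises (60.8%) and 597 of the falls (69.5%), beside 8933 of all 14103 features. The named genes thus stand for a smaller share of the rises.

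An FGF4-linked set was drawn from arrays that do not enter this comparison, those with control shRNAs in FGF4 and in LIF. Of 1124 features higher with FGF4 than with LIF there, 721 (64.1%) also rose with FGF4 and Mp1 shRNAs against no growth factor and 1 fell. Of 1088 features lower with FGF4 than with LIF, 603 (55.4%) fell and 2 rose. The 721 were 63.0% of all rises and the 603 were 70.2% of all falls. The median difference of those features was 0.98 and -0.86 log2 units, beside 0.02 for all features. The spread in both tests comes from the same model, and the LIF and no-factor labels carry the doubt described for Socs3.

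Several of the largest named rises were of genes that the no-factor cells showed hardly or not at all. Others, such as Emb and Cldn6, were detected on both no-factor arrays. Car4, a membrane-bound carbonic anhydrase, read 11.12 and 11.39 with Mp1 shRNAs, against 4.67 and 4.51 with no growth factor. Both no-factor values were not well above background, which makes the rise at least 54.6-fold (adjusted p = 5.71e-06). The groups lay far apart, and the arrays with FGF4 and control shRNAs read 11.92 and 11.96. Esrp1, a splicing regulator of epithelial cells, read 10.60 and 10.01 with Mp1 shRNAs, against 5.26 and 5.15 with no growth factor (at least 28.3-fold, adjusted p = 3.45e-05). The iron exporter gene Slc40a1 read 10.37 and 9.59 with Mp1 shRNAs, against 5.02 and 4.82 with no growth factor (at least 22.5-fold). Both were likewise not well above background with no factor. Among transcription factors, Pou3f1, known as Oct6 and active in epiblast and nervous system, read 10.69 and 10.69 with Mp1 shRNAs, against 6.42 and 6.34 with no growth factor, a difference of 4.31 ± 0.23 log2 units (SE, adjusted p = 3.66e-05). Sox11, a SoxC-family factor, read 8.67 and 8.71 with Mp1 shRNAs, against 5.12 and 5.21 with no growth factor (at least 9.25-fold), and Vrtn, which encodes vertnin, rose at least 6.21-fold. Groups without overlap were a condition for naming these genes.

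The other leading rises covered adhesion, transport and signalling. The chemokine gene Cxcl12 rose by 4.31, the immunoglobulin-family gene Emb by 3.90, Cldn6, a claudin of tight junctions, by 3.61, the kinesin motor gene Kif1a by 3.55 and the potassium channel gene Kcnk1 by 3.03 log2 units. Car14, another membrane carbonic anhydrase, rose at least 8.5-fold, the junctophilin gene Jph1 at least 6.1-fold and Tmem54 at least 4.68-fold. Emb varied most among them between the Mp1 shRNA arrays (13.12 and 12.22).

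Falls were led by Spic, an Ets-family transcription factor gene. It read 4.86 and 4.74 with Mp1 shRNAs, against 9.51 and 9.46 with no growth factor, at least 17.5-fold lower and undetected on both Mp1 shRNA arrays (adjusted p = 5.71e-06). The X-linked homeobox gene Rhox9 read 5.79 and 6.66 with Mp1 shRNAs, against 10.27 and 10.26 with no growth factor, a difference of -4.04 ± 0.28 log2 units. Rhox6, of the same family, read 4.74 and 4.66 with Mp1 shRNAs, against 8.75 and 8.61 with no growth factor (at least 10.0-fold lower). With control shRNAs in FGF4 both were also low but above the Mp1 shRNA arrays, at 7.53 and 7.18 for Rhox9 and 5.87 and 5.43 for Rhox6. The Mp1 against control difference did not pass for either (adjusted p = 0.181 and 0.149). Gsc, a homeobox gene of the organizer, read 5.60 and 5.62 with Mp1 shRNAs, against 9.30 and 9.26 with no growth factor, and Kit, the receptor for stem cell factor, 7.13 and 6.77 with Mp1 shRNAs, against 9.96 and 10.17 with no growth factor. Groups without overlap were again a condition for naming them.

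Of the remaining leading falls, the difference in log2 units was -3.64 for the pepsinogen gene Pga5, -3.38 for Lrrc15, -3.29 for the uncharacterised transcript 1700016D06Rik, -3.28 for Sapcd1 and -3.23 for the water and glycerol channel gene Aqp3. The calcium-binding protein gene S100a6 fell by 3.21 and Igfbp7, which encodes an insulin-like growth factor binding protein, by 3.21. Both also had higher means with control shRNAs in FGF4 (8.31 for S100a6 and 6.47 for Igfbp7) than with Mp1 shRNAs (6.91 and 5.62). These differences did not pass (adjusted p = 0.195 and 0.228). Aurkc, a kinase of meiotic cells, fell at least 5.73-fold, the solute transporter gene Slc51a at least 6.09-fold and the defensin gene Defb42 at least 4.41-fold, all 3 to levels not well above background. Sapcd1 was uneven between the Mp1 shRNA arrays (5.55 and 6.86). All 30 genes passed whichever array was left out.

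**Figure D1:**
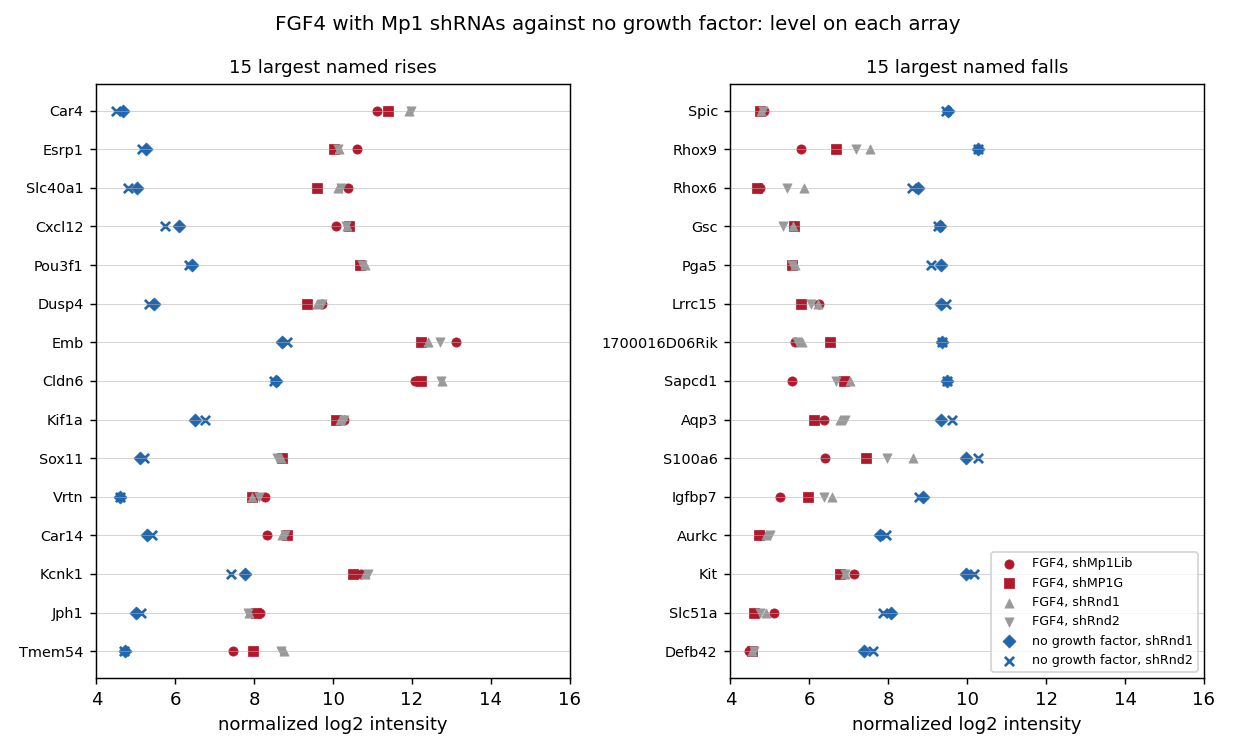
Normalized log2 intensity (x axis) of the 15 named genes with the largest rise (left) and the 15 with the largest fall (right), one symbol per array. Red marks the FGF4 arrays with Mp1 shRNAs, grey the FGF4 arrays with control shRNAs and blue the arrays with no growth factor. For Car4 the red symbols lie at 11.12 and 11.39 and the blue ones at 4.67 and 4.51.

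All 30 genes named by this rule also passed with control shRNAs in FGF4 against the same no-factor arrays, where 15.6% of features passed in either direction. The comparisons share the no-factor arrays, so their values are given side by side and not as independent. Of the 30 genes, 0 passed with limma between Mp1 and control shRNAs in FGF4. There 0.0993% of features passed, 9 higher and 5 lower with Mp1 shRNAs (2027 features at an unadjusted p under 0.05). The 2 Mp1 shRNA arrays differed by more than 1.5-fold in 28.5% of features, against 5.65% for the control arrays in FGF4. Leaving out either Mp1 shRNA array leaves a single array in that group, which cannot show a difference shared by both shRNAs. The rise against no factor was at least 54.6-fold with Mp1 and at least 87.8-fold with control shRNAs for Car4, and at least 4.68-fold and 9.44-fold for Tmem54. The difference was 3.61 with Mp1 and 4.21 with control shRNAs for Cldn6, and 4.31 and 4.40 log2 units for Pou3f1. The genes that led the control shRNA comparison include 3 outside the 30. Rbp7, a retinol-binding protein gene, read 7.91 and 9.57 with Mp1 shRNAs, 10.56 and 10.44 with control shRNAs in FGF4 and 6.00 and 6.28 with no factor. Its rise with Mp1 shRNAs (adjusted p = 0.00779) did not pass without either no-factor array (0.0731 and 0.0537). The difference against no factor was -2.94 log2 units with Mp1 and -3.49 with control shRNAs for the sulfotransferase gene Chst3, which was detected on 1 of 2 control shRNA arrays in FGF4. The acyltransferase gene Gpat3 differed by -2.96 log2 units with Mp1 shRNAs, detected on 1 of 2 arrays, and was at least 6.53-fold lower and undetected with control shRNAs.

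Most feedback and early response genes of the FGF/ERK pathway differed. Of 15 measured, 8 rose, 4 fell and 3 did not pass, with a median of 0.90 log2 units. For this list and those below, the shares over all features were 8.12% for rises and 6.09% for falls. Dusp4, a phosphatase that inactivates ERK, read 9.72 and 9.34 with Mp1 shRNAs, against 5.46 and 5.34 with no growth factor, at least 16.6-fold higher (adjusted p = 3.31e-05). Etv4, an Ets-family factor induced by FGF, read 9.73 and 9.63 with Mp1 shRNAs, against 7.25 and 7.21 with no growth factor (2.45 ± 0.17, adjusted p = 0.000129). The groups did not overlap for either, as for all features that rose. The FGF4 arrays with control shRNAs read 9.59 and 9.71 for Dusp4 and 9.40 and 9.58 for Etv4. Il17rd, which encodes the FGF antagonist Sef, rose by 1.99, and Spred1, an inhibitor of RAF activation, by 1.77 log2 units. The transcriptional repressor gene Bhlhe40 rose by 2.07, Phlda1 by 1.71 and the phosphatase gene Dusp5 by 0.99. Phlda1 was uneven between the Mp1 shRNA arrays (6.49 on shMp1Lib and 7.79 on shMP1G), and its difference was 2.36 without shMp1Lib and 1.07 without shMP1G. Myc, the growth regulator, rose at least 1.16-fold, being undetected with no factor. Spry4 was 6.47 and 6.83 with Mp1 shRNAs and 5.72 and 5.78 with no factor and did not pass (adjusted p = 0.0586).

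The 4 falls in this list were of immediate-early genes. Egr1, a zinc-finger factor, read 5.97 and 5.77 with Mp1 shRNAs, against 8.73 and 8.82 with no growth factor (-2.90 ± 0.18, adjusted p = 7.58e-05). With control shRNAs in FGF4 it read 7.05 and 6.85, between the other groups and without overlap. The difference of Mp1 from control shRNAs did not pass (adjusted p = 0.0946). Junb, a subunit of AP-1, read 6.47 and 6.79 with Mp1 shRNAs, 7.71 and 7.34 with control shRNAs in FGF4 and 7.81 and 7.59 with no growth factor, and fell against no factor (adjusted p = 0.0157). Its control shRNA arrays in FGF4 lay next to the no-factor level. Fos, another AP-1 subunit, fell by 1.07 and the stress-response gene Ier3 by 1.29 log2 units. Ier3 was uneven between the Mp1 shRNA arrays (6.71 and 7.67), and its difference was -0.81 without shMp1Lib and -1.77 without shMP1G. Without shMp1Lib 8 of the list rose and 2 fell, and Fos (adjusted p = 0.0779) and Ier3 (0.0749) did not pass. Phlda1, Dusp5, Myc, Junb, Fos and Ier3 did not pass without either no-factor array (adjusted p between 0.0763 and 0.195), and Dusp5 did not pass without shMp1Lib (0.0773) either. Ier3 (0.0531) and Dusp5 (0.0548) were also lost without either control array in FGF4.

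**Figure D2:**
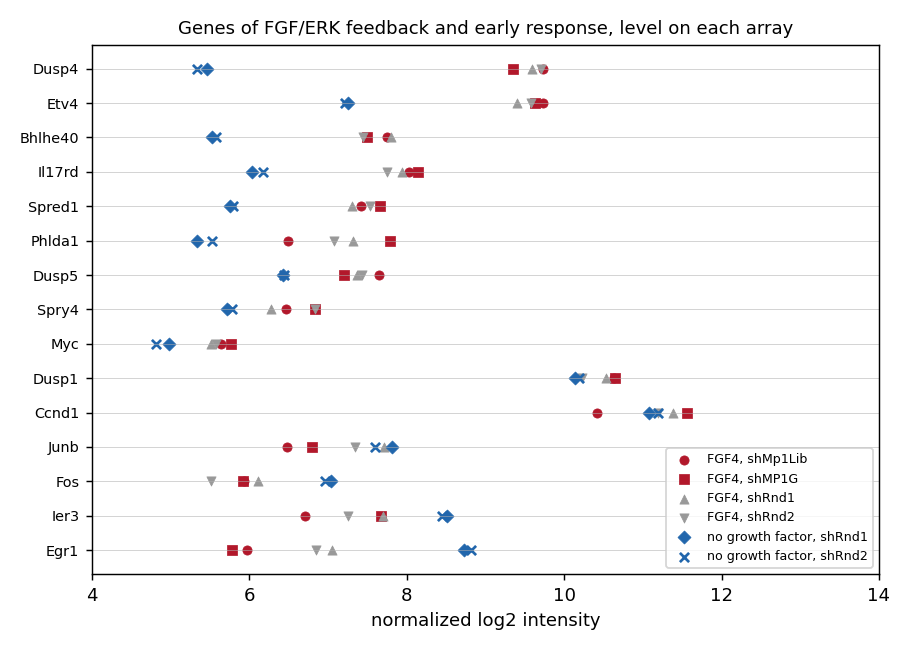
Normalized log2 intensity (x axis) of the 15 measured feedback and early response genes of the FGF/ERK pathway on each array, ordered by their difference between FGF4 with Mp1 shRNAs (red) and no growth factor (blue), with FGF4 and control shRNAs in grey. For Egr1 the red symbols lie at 5.97 and 5.77, the grey ones at 7.05 and 6.85 and the blue ones at 8.73 and 8.82.

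Genes of the ligands, the receptors and the kinase core were counted beside the 8.12% of all features that rose and the 6.09% that fell. Of 5 measured FGF ligands, receptors and their cell-surface partners, the ligand gene Fgf17 rose by 0.89 (adjusted p = 0.0111), the ligand gene Fgf10 fell at least 2.26-fold and went undetected with Mp1 shRNAs, and 3 did not pass. Fgfr2, a receptor, read 4.85 and 5.28 with Mp1 shRNAs, against 5.71 and 5.17 with no growth factor, and was detected on 1 of these arrays, with no factor. Of 10 measured genes of the Mp1 complex and the MAPK core, Rragb, a small GTPase that docks on the Lamtor complex, rose by 1.23, and 9 did not pass (median -0.20). The MEK genes Map2k1 and Map2k2 differed by -0.35 and -0.06 log2 units (adjusted p = 0.283 and 0.882). The scaffold subunit genes Lamtor2 (8.68 and 11.04 with Mp1 shRNAs, against 10.89 and 11.06 with no growth factor) and Lamtor4 (10.05 and 11.91 with Mp1 shRNAs, against 11.96 and 12.16 with no growth factor) were low on the shMp1Lib array alone. Without either no-factor array, shRnd1 or shRnd2, Fgf17 (0.0804 and 0.101) did not pass, and without shRnd1 Rragb (0.107) did not.

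Genes of naive pluripotency fell. Of 7 measured, 6 fell, 0 rose and 1 did not pass, with a median of -1.61 log2 units, beside 0.02 for all features. Beside Spic, the Krüppel-like factor gene Klf4 read 7.31 and 8.31 with Mp1 shRNAs, against 10.35 and 10.09 with no growth factor (-2.41 ± 0.34, adjusted p = 0.00268). Klf2, of the same family, read 9.78 and 10.21 with Mp1 shRNAs, against 11.43 and 11.43 with no growth factor, and the T-box factor gene Tbx3 9.65 and 9.27 with Mp1 shRNAs, against 11.08 and 11.06 with no growth factor. In each of the 3 both Mp1 shRNA arrays lay below both no-factor arrays, as for all features that fell. Dppa3, a gene of naive and germ cells, fell at least 4.17-fold and Prdm14, a repressor of differentiation, at least 2.09-fold, both to levels not well above background. Nr5a2, a nuclear receptor gene, read 5.06 and 5.16 with Mp1 shRNAs, against 5.58 and 5.73 with no growth factor and did not pass (adjusted p = 0.108). Esrrb, Nanog and Zfp42 were not measured here. The same 6 of 7 passed without shMp1Lib.

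Genes of the formative and primed epiblast moved the other way. Of 8 measured, 7 rose, 0 fell and 1 did not pass, with a median of 2.64 log2 units. Like the other lists, this one was chosen with earlier results of these data known, so the count is no independent support. Beside Car4, Pou3f1 and Cldn6, Dnmt3b, a de novo DNA methyltransferase gene, read 8.00 and 8.41 with Mp1 shRNAs, against 5.62 and 5.09 with no growth factor (2.85 ± 0.23, adjusted p = 0.000259), with 1 of 2 no-factor arrays above background. Sox4, a SoxC-family factor, rose at least 4.91-fold and the kinase gene Pim2 rose by 1.74 log2 units. Sfrp2, a secreted modulator of Wnt signalling, read 8.03 and 7.80 with Mp1 shRNAs, against 6.95 and 6.83 with no growth factor. Its rise was small (adjusted p = 0.00817) and did not pass without either no-factor array (0.0577 and 0.0879). Zic2 read 5.94 and 5.86 with Mp1 shRNAs, against 5.14 and 5.85 with no growth factor and did not pass. No member of this list passed between Mp1 and control shRNAs in FGF4 (Cldn6 differed by -0.60 log2 units), and the list median there was -0.10 log2 units.

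General pluripotency genes divided. Of 10 measured, 4 rose, 1 fell and 5 did not pass, with a median of 0.42 log2 units. Utf1, a chromatin factor of ES cells, read 11.03 and 11.75 with Mp1 shRNAs, against 9.79 and 9.79 with no growth factor (1.60 ± 0.26, adjusted p = 0.00473). The neighbouring genes Dppa2 and Dppa4 rose by 1.30 and 1.33, and the RNA-binding protein gene Lin28a by 1.01 log2 units. Lefty2, a Nodal antagonist, fell by 1.07 (-1.43 without shMp1Lib and -0.71 without shMP1G), while its relative Lefty1 read 8.41 and 8.71 with Mp1 shRNAs, against 8.05 and 7.78 with no growth factor and did not pass (adjusted p = 0.114). With control shRNAs in FGF4 Lefty1 read 9.67 and 9.16. Pou5f1, Dppa5a, Tdgf1 and Gdf3 did not pass. Lin28a did not pass without shRnd1 with no factor (0.0975), and Lefty2 was lost on leaving out any 1 array but shMp1Lib (adjusted p between 0.0506 and 0.229).

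LIF/STAT3 targets were lower where they differed. Of 8 measured, 3 fell, 0 rose and 5 did not pass, with a median of -0.63 log2 units. Socs3, the cytokine signalling inhibitor and a classical STAT3 target, read 8.21 and 8.04 with Mp1 shRNAs, against 11.04 and 11.01 with no growth factor (-2.90 ± 0.18, adjusted p = 7.58e-05). The arrays labelled LIF read 7.67 and 7.64, below those labelled with no growth factor. Which arrays had no factor rests on the labels alone. Bcl3, a regulator of NF-kappa-B, fell at least 4.6-fold and was near background with Mp1 shRNAs, and Klf4 belongs to this list too. Bcl3 also read lower on the arrays labelled LIF (6.37 and 5.76) than with no factor (7.50 and 7.61). For Klf4 these arrays overlapped (10.31 and 9.69 with LIF, 10.35 and 10.09 with no factor). Stat3 read 6.36 and 5.87 with Mp1 shRNAs, against 6.71 and 7.28 with no growth factor and did not pass (adjusted p = 0.139), nor did the receptor genes Lifr and Il6st.

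Interferon response genes rose more often than they fell. Of 10 measured, 5 rose, 1 fell and 4 did not pass, with a median of 1.08 log2 units. Irf1, a transcription factor that STAT proteins induce, read 10.76 and 10.44 with Mp1 shRNAs, against 7.96 and 7.66 with no growth factor (2.79 ± 0.20, adjusted p = 0.000123). Psmb8, a subunit of the immunoproteasome, read 7.62 and 8.14 with Mp1 shRNAs, 9.09 and 8.73 with control shRNAs in FGF4 and 5.55 and 5.56 with no growth factor. The groups of these genes did not overlap, as for all features that rose. Tap1, which carries peptides into the endoplasmic reticulum (at least 2.9-fold), and the antiviral gene Oasl2 (at least 2.04-fold) rose, neither being detected with no factor, and Bst2, which tethers viruses to the membrane, rose by 1.46 log2 units. Bst2 read 7.95 on shMp1Lib and 9.16 on shMP1G, and its difference was 2.06 without shMp1Lib and 0.85 without shMP1G. Ifi27 fell by 2.10. Psmb9, the partner of Psmb8, read 6.87 and 7.90 with Mp1 shRNAs, against 6.59 and 6.79 with no growth factor and did not pass (adjusted p = 0.243), and Ifi35 read 5.21 and 5.34 with Mp1 shRNAs, against 5.11 and 5.50 with no growth factor. Without shMp1Lib the list had 6 rises and 1 fall. Bst2 was lost without either control array in FGF4 (0.0555) and without either no-factor array (0.124 and 0.182).

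Socs3, which fell, and Irf1 and Psmb8, which rose, each hold the letters of a STAT motif in their promoter. The promoter windows of the 3 genes, from RefSeq on GRCm38.p6, are printed to show where that motif lies. Each runs from 250 bases before to 50 after the annotated start, 5′ to 3′ in the direction of the gene, and the motif TTCNNNGAA, which reads the same on both strands, is in capitals. It begins 154 bases before the start in Socs3, 90 in Irf1 (for 1 of its 2 annotated starts) and 97 in Psmb8. Socs3 lies at chr11:117969317-117969616 on the minus strand, Irf1 at chr11:53769764-53770063 and Psmb8 at chr17:34197945-34198244, both on the plus strand.
Socs3: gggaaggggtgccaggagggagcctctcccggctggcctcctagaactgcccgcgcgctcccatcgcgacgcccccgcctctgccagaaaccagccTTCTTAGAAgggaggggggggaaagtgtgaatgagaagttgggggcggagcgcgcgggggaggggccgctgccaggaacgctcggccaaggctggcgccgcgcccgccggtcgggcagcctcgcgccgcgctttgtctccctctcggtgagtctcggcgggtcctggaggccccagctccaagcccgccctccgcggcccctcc
Irf1: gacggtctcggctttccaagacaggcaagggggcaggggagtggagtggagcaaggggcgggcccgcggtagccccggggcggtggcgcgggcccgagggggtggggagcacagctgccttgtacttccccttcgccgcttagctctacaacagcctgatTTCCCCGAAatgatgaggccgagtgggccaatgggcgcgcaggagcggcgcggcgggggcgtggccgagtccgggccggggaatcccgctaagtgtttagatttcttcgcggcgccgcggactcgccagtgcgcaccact
Psmb8: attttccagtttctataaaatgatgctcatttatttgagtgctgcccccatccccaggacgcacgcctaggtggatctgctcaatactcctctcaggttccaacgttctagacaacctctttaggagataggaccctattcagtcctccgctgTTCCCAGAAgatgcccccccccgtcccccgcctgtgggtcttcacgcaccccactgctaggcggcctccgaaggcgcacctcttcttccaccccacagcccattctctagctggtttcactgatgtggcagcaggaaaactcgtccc
The motif is in 2726 of 32851 windows (8.30%). Among measured genes with a window, 2 of 8 LIF/STAT3 targets and 5 of 9 interferon response genes hold it. These are matches of letters, not measured sites, and no binding was measured.

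BMP targets were followed because all cells had been exposed to BMP4. Of 8 measured, 4 rose, 1 fell and 3 did not pass, with a median of 0.49 log2 units. The homeobox gene Msx1 read 9.18 and 8.87 with Mp1 shRNAs, 9.93 and 9.70 with control shRNAs in FGF4 and 6.56 and 6.50 with no growth factor, a rise by 2.49 ± 0.21 with Mp1 shRNAs (adjusted p = 0.000268). The inhibitors of bHLH factors Id1 and Id3 read 12.07 and 12.97 with Mp1 shRNAs, against 10.55 and 10.87 with no growth factor for Id1, and 8.81 and 9.75 with Mp1 shRNAs, against 7.49 and 7.25 with no growth factor for Id3. Both were lower with shMp1Lib than with shMP1G. Id2 rose by 0.92 and Gata2, a GATA factor of blood and trophoblast, fell by 2.14 log2 units. Id2 did not pass without either no-factor array (0.155 and 0.0769), Id1 without shRnd1 (0.057) and Id3 without shRnd2 (0.0611).

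Epithelial genes rose in part. The list of surface ectoderm and simple epithelium had 15 measured genes, of which 7 rose, 2 fell and 6 did not pass, with a median of 0.69 log2 units. The simple keratin genes Krt8 and Krt18, whose proteins pair in filaments, read 10.25 and 10.10 with Mp1 shRNAs, against 8.64 and 7.94 with no growth factor for Krt8, and 9.07 and 9.45 with Mp1 shRNAs, against 7.69 and 6.90 with no growth factor for Krt18. Control shRNAs in FGF4 gave 11.26 and 11.25 for Krt8 and 10.41 and 10.38 for Krt18, above both Mp1 shRNA arrays, but these differences did not pass (adjusted p = 0.181 and 0.267). Tfap2a, an AP-2 factor of the ectoderm, rose by 1.81, Grhl2, a regulator of epithelial junctions, by 1.61, the cadherin gene Cdh1 by 1.17 and Cldn4 by 0.78 log2 units. Grhl3, a relative of Grhl2, fell by 2.02. In the list of epithelial to mesenchymal genes 4 of 9 rose and 2 fell, with a median of 0.66. The protease gene Mmp2 (1.49) and the integrin gene Itgb5 (2.01) rose, and so did the junction gene Cldn3 (at least 2.65-fold) and Esrp1. The matrix genes Sparc and Fn1 fell by 0.99 and 0.70 log2 units. Without shMp1Lib 4 rose and 1 fell. Without shRnd2 with no factor Krt18 (0.104), Cdh1 (0.055), Cldn4 (0.159), Sparc (0.131) and Fn1 (0.144) did not pass, and without shRnd1 Grhl2 (0.0509), Cdh1 (0.0594), Cldn4 (0.155), Sparc (0.0854) and Fn1 (0.281) did not. Cldn4 was lost without shMp1Lib (0.0704) too, and Fn1 without any 1 of the 8 arrays (0.0598 to 0.281).

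Lineage genes moved in both directions. Of 9 trophoblast genes 1 rose and 4 fell (median -0.88). Ascl2, a bHLH factor of the placenta, rose at least 2.28-fold, being undetected with no factor, while Tead4, which acts in the early trophectoderm, fell by 1.05 beside Rhox6 and Rhox9. Gata3, a factor of trophoblast and ectoderm, read 5.63 and 5.60 with Mp1 shRNAs, against 6.31 and 6.67 with no growth factor (adjusted p = 0.0316). Of 6 neural genes, Sox11 and Map2 (1.05) rose, and Nes fell at least 2.19-fold and the adhesion gene Ncam1 at least 1.73-fold. Of 5 primitive streak genes, Evx1 rose (8.79 and 7.40 with Mp1 shRNAs, against 5.90 and 6.24 with no growth factor), by 1.34 without shMp1Lib and 2.72 without shMP1G, and Gsc and Gata2 fell. Of 8 endoderm genes, the adaptor gene Dab2 rose at least 3.87-fold and the laminin gene Lamb1 at least 1.77-fold, the collagen gene Col4a2 fell by 1.79, and Gata4, Gata6, Sox17 and Sox7 did not pass. The median difference was -0.06 for the neural list (0.11 with array medians), 0.01 for primitive streak and 0.12 for endoderm. Of 8 Hox genes 4 fell (Hoxa7, Hoxb4, Hoxb7 and Hoxc6) and 0 rose. Hoxb7 read 5.32 and 5.51 with Mp1 shRNAs, against 7.66 and 7.63 with no growth factor, and Hoxa7 fell at least 2.2-fold. With fold bounds in place of fitted values for undetected members, the Hox median was -0.33 in place of -0.86 log2 units, a shift of 0.52 that no other list exceeded. The defining markers of extraembryonic endoderm summed to a linear intensity of 339 to 374 with Mp1 shRNAs and 200 to 227 with no factor. Those of trophoblast summed to 223 to 245 with Mp1 shRNAs and 196 to 219 with no factor, and those of neural cells to 187 to 199 with Mp1 shRNAs and 137 to 149 with no factor. All these sums include the background signal of undetected markers, and of the 5 extraembryonic endoderm markers only Dab2 passed. Cdx2, Elf5 and Tpbpa of trophoblast and Sox1 and Pax6 of neural cells were not detected in either group. The part of such cells in the results was not tested.

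Germline genes followed no single direction. Of 6 measured, the TAF-family gene Taf7l (1.28) and the helicase gene Ddx4 (at least 1.26-fold) rose, Kit, Dppa3 and Rhox13 fell, and Dazl did not pass (median -1.03). Rhox13 read 7.38 and 8.85 with Mp1 shRNAs, against 9.72 and 9.99 with no growth factor, with the lower Mp1 shRNA value on shMp1Lib and a difference of -1.001 without that array and -2.48 without shMP1G. Ddx4 did not pass without shMp1Lib (0.11), without either control array in FGF4 (0.0605) or without either no-factor array (0.153 and 0.229). Gata3 was lost in those cases too (0.0596, 0.0536, 0.0796 and 0.234). Without shRnd1 with no factor Nes (0.0613), Hoxb4 (0.0955), Hoxc6 (0.0702), Evx1 (0.104), Lamb1 (0.0644), Taf7l (0.104) and Rhox13 (0.124) did not pass. Without shRnd2 Map2 (0.113), Hoxb4 (0.11), Evx1 (0.0661), Lamb1 (0.116), Taf7l (0.11) and Rhox13 (0.189) did not, and Rhox13 was lost without a control array in FGF4 (0.0525) or LIF (0.0507).

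**Figure D3:**
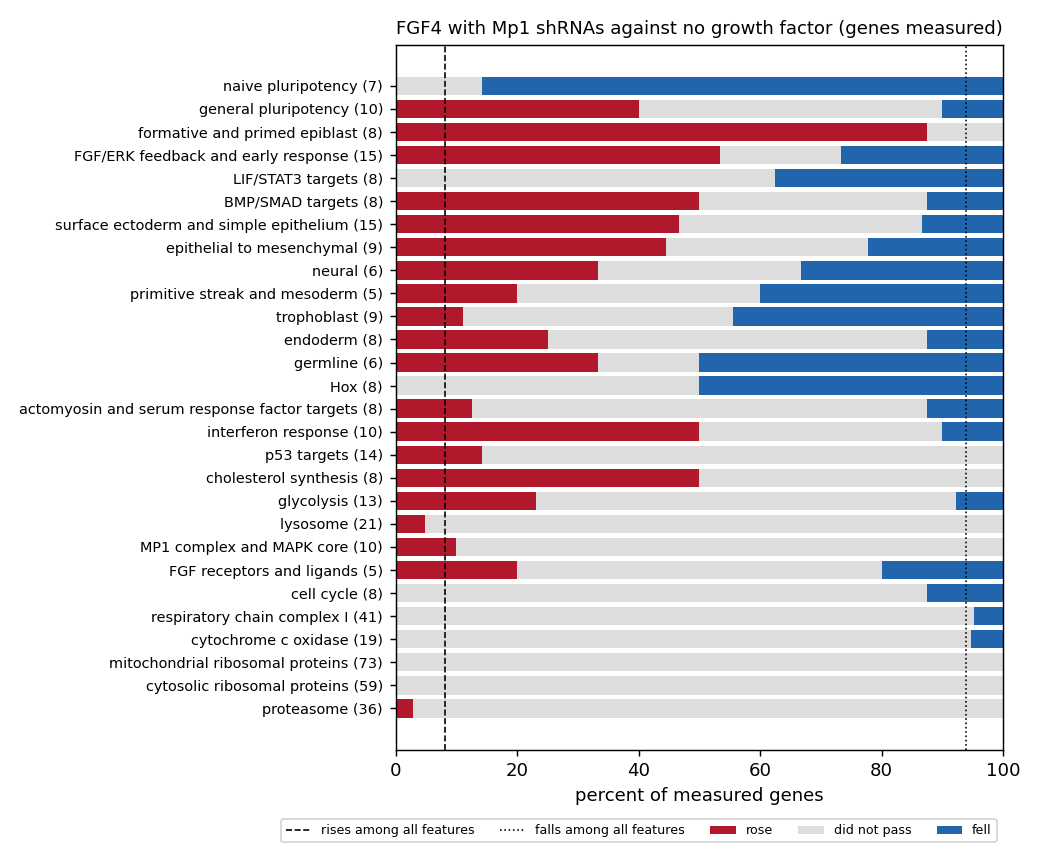
Share of the measured genes of each list (number in brackets, lists of 5 or more) that rose (red), did not pass (grey) or fell (blue) with FGF4 and Mp1 shRNAs against no growth factor. The dashed line marks the 8.12% of all features that rose and the dotted line the 6.09% that fell, counted from the right, and 6 of 7 naive pluripotency genes fell while 7 of 8 epiblast genes rose. The lists were chosen with earlier results of these data known.

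Some genes that were higher with FGF4 and control shRNAs stood at or near the no-factor level with FGF4 and Mp1 shRNAs. These genes were chosen after their values were seen. Myl9, a regulatory light chain of myosin, read 4.79 and 5.25 with Mp1 shRNAs, 8.27 and 7.96 with control shRNAs in FGF4 and 4.69 and 4.60 with no growth factor. On the Mp1 shRNA and no-factor arrays it was not well above background, which makes it at least 6.76-fold lower with Mp1 than with control shRNAs. Gap43, a growth cone protein gene, read 6.35 and 6.31 with Mp1 shRNAs, 7.75 and 7.59 with control shRNAs in FGF4 and 6.55 and 6.42 with no growth factor. Both were lower with Mp1 than with control shRNAs (adjusted p = 0.00572 and 0.0389), and neither passed against no factor (0.29 and 0.577). The actin-binding protein gene Cnn2 read 7.44 and 7.34 with Mp1 shRNAs, 8.25 and 7.97 with control shRNAs in FGF4 and 7.28 and 7.20 with no growth factor. Sfn, the stratifin gene of epithelia, read 6.34 and 6.62 with Mp1 shRNAs, 8.39 and 7.94 with control shRNAs in FGF4 and 5.83 and 6.03 with no growth factor. Krt19, a keratin gene, was not well above background on the Mp1 shRNA or no-factor arrays and read 6.14 and 5.76 with control shRNAs. For Cnn2, Sfn and Krt19 the difference of Mp1 from control shRNAs did not pass (adjusted p = 0.181, 0.0553 and 0.0946). Without shMP1G it was -1.82 log2 units for Sfn and -1.22 for Krt19, with shMp1Lib as the only Mp1 shRNA array.

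The interferon-induced gene Ifi35 read 5.21 and 5.34 with Mp1 shRNAs, 6.48 and 6.34 with control shRNAs in FGF4 and 5.11 and 5.50 with no factor. Ebp, an enzyme of cholesterol synthesis, read 8.19 and 8.88 with Mp1 shRNAs, 9.69 and 9.65 with control shRNAs and 8.57 and 8.60 with no factor. In both, the Mp1 shRNA and no-factor arrays overlapped, and the difference of Mp1 from control shRNAs did not pass (adjusted p = 0.124 and 0.145). The chemokine gene Cxcl16 lay between, at 5.96 and 6.23 with Mp1 shRNAs, 7.80 and 7.50 with control shRNAs and 4.97 and 4.85 with no factor. It rose against no factor, where it was not well above background (at least 1.53-fold, adjusted p = 0.00486, but 0.0592 without shRnd2 with no factor), and was lower than with control shRNAs (adjusted p = 0.0389). Tpm1, a tropomyosin gene, was likewise intermediate. It read 10.63 and 10.46 with Mp1 shRNAs, 11.56 and 11.51 with control shRNAs in FGF4 and 9.23 and 9.35 with no growth factor. Tpm1 rose by 1.26 against no factor, but unlike for Cxcl16 its difference between Mp1 and control shRNAs did not pass. The difference between Mp1 and control shRNAs did not pass without shRnd1 or shRnd2 in FGF4 for Myl9 (adjusted p = 0.0877 and 0.0897), Gap43 (0.542 and 0.409) or Cxcl16 (0.517 and 0.355). Without either no-factor array it was 0.0522 for Myl9 and 0.177 for Gap43 and Cxcl16, without either LIF array 0.118 for Gap43 and Cxcl16, and without shMp1Lib 0.0536 for Cxcl16.

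For 4 other genes, also chosen after their values were seen, both Mp1 shRNA arrays lay below all 4 arrays with control shRNAs, in FGF4 and with no factor. Nes, an intermediate filament gene of neural progenitors, read 5.19 and 4.81 with Mp1 shRNAs, 6.23 and 6.43 with control shRNAs in FGF4 and 6.57 and 6.40 with no factor. Ccn1, a matricellular target of serum response factor, read 6.54 and 6.38 with Mp1 shRNAs, 7.73 and 7.81 with control shRNAs and 7.33 and 7.32 with no factor. Gata3 and Junb are described above, and Gata3 read 7.24 and 6.92 with control shRNAs in FGF4. The fall against no factor passed for Nes (adjusted p = 0.00549), Ccn1 (0.0177), Gata3 and Junb. The difference between Mp1 and control shRNAs passed for none of the 4 (0.11, 0.0626, 0.0729 and 0.181). Ccn1 did not pass without either no-factor array (0.118 and 0.122). In the actomyosin list as a whole, Tpm1 rose, Ccn1 fell and 6 of 8 did not pass (median 0.26).

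**Figure D4:**
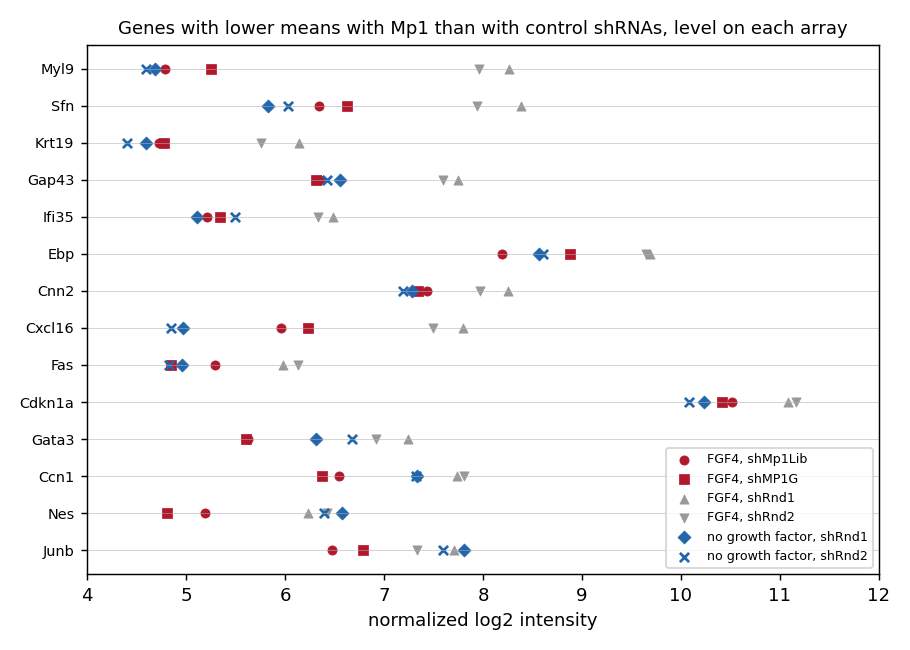
Normalized log2 intensity (x axis) of 14 genes with lower means with Mp1 than with control shRNAs in FGF4, one symbol per array, chosen after their values were seen. Red marks FGF4 with Mp1 shRNAs, grey FGF4 with control shRNAs and blue no growth factor. For Myl9 the red symbols lie at 4.79 and 5.25, the grey ones at 8.27 and 7.96 and the blue ones, beside the red, at 4.69 and 4.60.

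Lists of metabolism and growth control were counted too, beside the 8.12% of all features that rose and the 6.09% that fell. Of 8 cholesterol synthesis genes, Lss (1.07), Idi1 (0.97), Dhcr7 (0.79, but 1.06 without shMp1Lib and 0.51 without shMP1G) and Insig1 (0.66) rose, 0 fell and 4 did not pass. Of 13 glycolysis genes, Eno3 (1.63), Ldha (0.99) and Tpi1 (0.82) rose, Hk1 fell by 1.15 and 9 did not pass, and another probe of Tpi1 stood at -0.64. Of 14 p53 targets, Pmaip1, a pro-apoptotic gene, rose at least 2.99-fold and Bbc3 rose by 0.70, while Mdm2 and the cell cycle inhibitor gene Cdkn1a did not pass (adjusted p = 0.856 and 0.273). Cdkn1a read 10.51 and 10.41 with Mp1 shRNAs, 11.08 and 11.16 with control shRNAs in FGF4 and 10.24 and 10.08 with no growth factor. Of 8 cell cycle genes Cdkn2a fell by 1.20 and 7 did not pass. Cdkn2a read 6.22 on shMp1Lib and 7.37 on shMP1G, and its difference was -0.62 without shMp1Lib and -1.77 without shMP1G. Mp1 sits on late endosomes, and of 21 lysosome genes the protease gene Ctsc rose at least 2.96-fold and 20 did not pass. The list medians were 0.63 for cholesterol synthesis, 0.41 for glycolysis, 0.21 for p53 targets and 0.19 for lysosome genes. Without shMp1Lib, Idi1 (0.0572), Insig1 (0.087), Ldha (0.0516), Tpi1 (0.103), Bbc3 (0.0952) and Cdkn2a (0.0787) did not pass. Without either no-factor array those 6, Lss and Dhcr7 did not pass (adjusted p between 0.0584 and 0.266), nor Eno3 without shRnd2 (0.0552) or Hk1 without shRnd1 (0.0528). Dhcr7, Insig1, Tpi1, Bbc3 and Cdkn2a were lost without either array in LIF or either control array in FGF4 as well (0.0516 to 0.0868), and Dhcr7 without shMP1G (0.0805).

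Among the lists, those of the respiratory chain differed most between the Mp1 shRNA arrays. For 41 genes of respiratory chain complex I the median level against no factor was -1.42 log2 units on shMp1Lib and 0.05 on shMP1G. For 19 cytochrome c oxidase genes it was -1.55 on shMp1Lib and -0.06 on shMP1G, and for 73 mitochondrial ribosomal protein genes -0.98 on shMp1Lib and -0.0025 on shMP1G. The low values of these genes thus lie on 1 of the Mp1 shRNA arrays, and 2 complex I genes, 1 cytochrome c oxidase gene and 0 mitochondrial ribosomal protein genes fell as a group difference. The 59 cytosolic ribosomal protein genes and 3 fibroblast genes did not pass, and of 36 proteasome genes 1 rose. The epiblast list gave 2.49 and 2.80 and the naive list -1.65 and -1.80 on the same arrays. In the interferon list the arrays gave 0.52 and 1.42. The share of the shMp1Lib array in other results was not tested beyond leaving it out.

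Single genes with the largest difference between the Mp1 shRNA arrays are given as values. Higher on shMp1Lib were Zscan4c (7.95 against 6.49 on shMP1G), a gene of a rare ES cell state, Evx1 (8.79 against 7.40), Gm5662, Uimc1 and Orc2. Lower there were Erich5 (8.44 against 11.58 on shMP1G), the histone gene H2ac21 (9.47 against 12.29), Prf1, Zxda and the apolipoprotein gene Apoc1 (8.56 against 11.29). With no factor Zscan4c read 5.15 and 5.15, below both. Erich5 read 10.02 and 10.52 with no factor, between its Mp1 shRNA values.

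**Figure D5:**
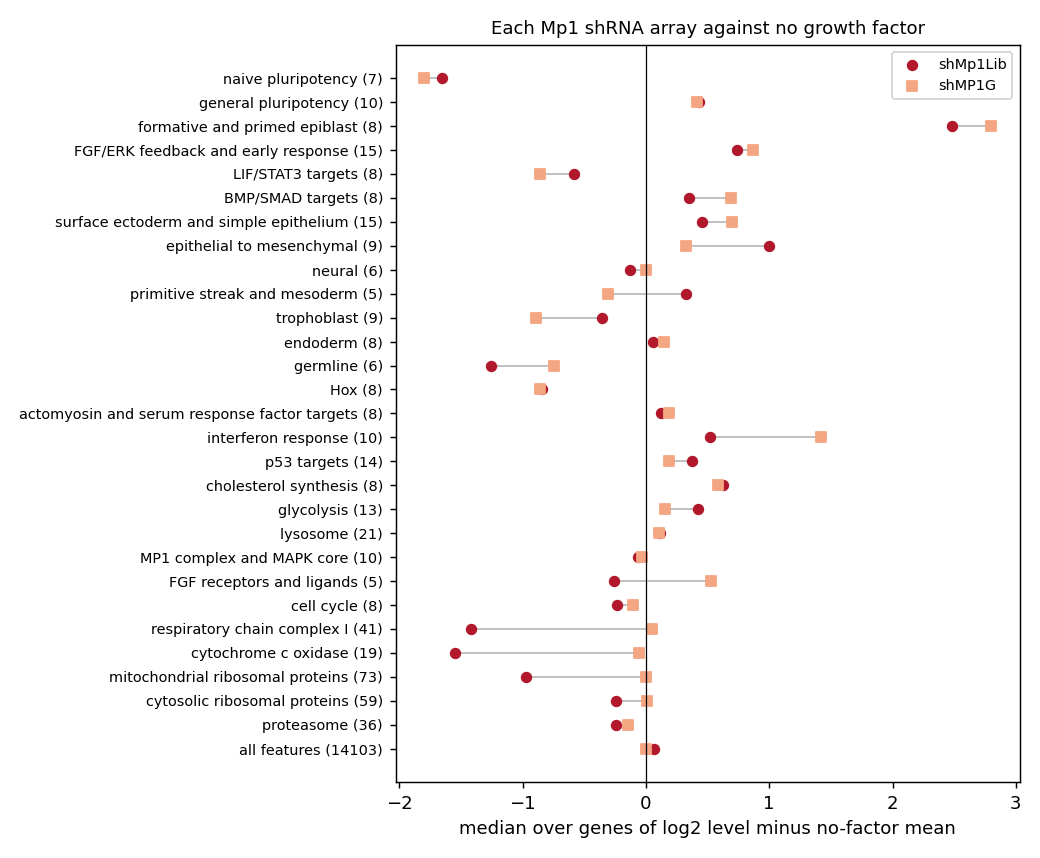
Median over the measured genes of each list (number in brackets) of the log2 level on the shMp1Lib array (circles) and the shMP1G array (squares) minus the mean of the 2 no-factor arrays. The arrays lie -1.42 and 0.05 for complex I, and -1.65 and -1.80 for naive pluripotency.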

How the data were processed

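Per the labels, RNA of 8 samples was hybridised to Illumina mouse bead arrays, 2 in each of 4 groups. The authors deposited a non-normalized table of intensities with a detection p-value per probe and array, per the file headers, and a table of processed intensities of unstated method (not given in the sources used here). Of 362248 cells of the non-normalized table, 81.2% had lost their decimal point. It was restored from the digits and, for 222552 cells, the detection p-value. The processed table's probe IDs could not be matched to its values, so it served only as an alternative for counts.

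Normexp background correction with detection p-values (offset 16), quantile normalization and log2 were done with limma's neqc (limma 3.58.1, statmod 1.5.0, R 4.3.3; tables with Python 3.11.15, pandas 2.3.3). Probes at detection p under 0.05 on at least 2 of 8 arrays were kept (18110). With the brightest probe per symbol, this left 14103 features, 8933 of them named through the platform annotation (32245 of 45281 probes with 1 symbol, 17 with several, 13019 with none or no entry). All tests are limma's moderated test, two-sided, fitted to 4 group means with all 8 arrays (4 residual and 4.18 prior degrees of freedom), adjusted over the 14103 features by Benjamini-Hochberg, at a threshold of 0.05. A group not detected on any of its arrays has only a bound, so folds against it are written as at least N-fold: the mean of the brighter group over the lowest signal among probes well above background, or the dim probe's own signal where that is higher.

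The genes and the 30 lists were chosen with earlier results of these data known. Named are the 15 rises and 15 falls of largest difference, the 10 of each with control shRNAs, list members, and the 5 features in each direction with the largest difference between the Mp1 shRNA arrays. The 15 and the 10 of each were drawn from named features that passed. Non-overlapping groups were required there, with the brighter group detected on both its arrays. Samples sharing a control shRNA name did not deviate together (correlations between -0.08 and 0.04), so the names do not pair them. The scripts were tested on simulated data. The labels' treatment notes give 1 control shRNA for both LIF samples, the titles a different one for each. The number of arrays limits the precision. Alternatives were other background, scaling, filter, feature and array choices, given at the end.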

Additional observations from a re-analysis of the deposited data

Results flagged for a closer look

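With FGF4 given, 3 named genes were lower with Mp1 than with control shRNAs (limma, adjusted over all features). Of all 14 features that passed there, 9 were higher and 5 lower with Mp1 shRNAs. Myl9 was at least 6.76-fold lower (adjusted p = 0.00572). It was not well above background on either Mp1 shRNA array, so its fitted difference of -3.09 log2 units is no bound. The difference was -1.55 log2 units for Cxcl16 (adjusted p = 0.0389) and -1.34 for Gap43 (0.0389). No array had Mp1 shRNAs without a growth factor, so an effect of FGF4 in cells with Mp1 shRNAs cannot be estimated. Both Mp1 shRNA arrays lay below both control arrays in FGF4 for each gene, which passing with 2 arrays per group nearly requires. None of the 3 passed when a control array in FGF4 was left out, and Myl9 alone passed with array weights (adjusted p = 0.00761). The 2 arrays per group set the limit here, and Lamtor3, the Mp1 gene, was not measurable.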

How the results depend on the processing

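The 2004 features past the threshold with FGF4 and Mp1 shRNAs against no growth factor became 1225 when a probe had to be detected on all 8 arrays, 989 with only the 4 arrays compared, 1323 with array weights and 666 with only features whose digits allowed 1 reading. With 1 array left out the count lay between 737 and 4565. The corresponding counts for FGF4 with control shRNAs against no growth factor (2205) were 1385, 3858, 4112 and 781, with 1008 to 3232 on leaving out 1 array. For FGF4 with control shRNAs against LIF (2212) they were 1388 and 782 for the detection and reading settings, and 981 to 3325 on leaving out 1 array. For Mp1 against control shRNAs (14, with limma) they were 4 with array medians, 0 with only the arrays compared (1153 at an unadjusted p under 0.05), 2 with array weights, 8 with 1 reading, and 0 to 2841 on leaving out 1 array. Fewer features or samples enter the detection, reading and array settings, and for the others the cause was not tested. With shMP1G left out, the Mp1 group is the shMp1Lib array alone. With the shRNA as a random replicate block the first count was 1999, and a fixed replicate block over the control arrays gave 2975 for FGF4 against no growth factor. Numbers do not pair the arrays. Without background correction (1925), without the detection filter (1864), with all probes kept (2427) or from the processed table (2201) the first count moved by less than 1.5 times. With array medians the split was 1169 rises and 518 falls, in place of 1145 and 859, and the median of 6 neural genes was 0.11 in place of -0.06. Of 117 named genes that passed in the first comparison, 70 passed under every alternative that measured them, 74 on leaving out any 1 array, and 0 changed direction.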
